A study of Mus musculus with 4 samples.

Results

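Reporter-positive and reporter-negative cells of the mouse intestinal epithelium at embryonic day 12.5 (E12.5) were compared across genes within a single library. A cell entered with at least 500 detected genes, at least 10000 unique molecular identifiers (UMIs, each standing for 1 captured RNA molecule) and at most 20% of UMIs from mitochondrial genes. Of 5216 E12.5 barcodes, among 22731 in the 4 libraries of the series, 3323 passed. The 436 cells with 2 or more UMIs of eGFP, the transcript of the green fluorescent reporter, were taken as positive and the 1902 cells with none as negative. A further 985 cells with exactly 1 eGFP UMI entered neither side.

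Embryos of both ages (E12.5 and E17.5), adult mice and irradiated adult mice all carried the Bmi1-GFP reporter allele, and each of these 4 groups was represented by 1 library. The number of animals pooled, the zygosity of the allele and the sorting gates are not stated in the labels. According to the series' design text the sort itself was for Bmi1-expressing cells, so that a negative cell here is a sorted cell without a captured eGFP transcript and not a cell from a GFP-negative gate. Since cells of 1 library are not replicates, no test was made, and every interval below is an exact 95% interval that covers counting error only.

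Bmi1 encodes a RING finger subunit of Polycomb repressive complex 1, which ubiquitinates histone H2A and keeps developmental genes silent, Hox genes and the Cdkn2a locus among them. In the adult intestine, Bmi1 reporters have been used to mark slowly cycling cells above the crypt base and cells of the secretory lineage. At the embryonic age studied, the gut epithelium is still a proliferating, undifferentiated tube, patterned along its length by Hox and Cdx factors, with the posterior Hox paralogs restricted to the hindgut.

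Bmi1 (ENSMUSG00000026739) lies on chromosome 2 from 18677018 to 18686629 on the + strand (GRCm38, GENCODE M21), next to Commd3, which ends at 18676231 on the same strand. The 250 bases before its start, chr2:18676768-18677017 on the + strand in GRCm38.p6 (RefSeq), are shown because the reporter is read as a stand-in for transcription from this gene. Capitals mark matches to the GC-box core GGGCGG or to the E-box CACGTG on either strand.

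Bmi1 promoter: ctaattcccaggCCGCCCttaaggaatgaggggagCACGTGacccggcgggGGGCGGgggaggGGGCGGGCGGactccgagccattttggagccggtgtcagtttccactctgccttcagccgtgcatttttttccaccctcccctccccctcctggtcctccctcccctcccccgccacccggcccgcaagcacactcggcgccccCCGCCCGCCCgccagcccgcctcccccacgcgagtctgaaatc

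The stretch is 70.4% G and C, against a median of 52.4% over 32851 RefSeq promoters cut to the same length, and holds 21 CG dinucleotides against a median of 6. GGGCGG occurred 6 times, with overlapping matches counted, and 32.7% of all promoters held it at least once. CACGTG occurred 1 time and was present in 6.02% of promoters. TATAAA had no match here and was found in 12.4% of promoters. These are matches of letters, and the data hold no measurement of binding at them.

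The eGFP counts were first described, since they chose the sides. In the 3323 filtered E12.5 cells eGFP stood at 23.3 CPM (counts per 1000000 UMIs; 22.3 to 24.3, from 2012 UMIs). Among the positive cells, 322 had exactly 2 eGFP UMIs, 82 had 3 and 32 had 4 or more, and the highest count in a cell was 6. If every cell had the same eGFP rate per UMI and the counts were Poisson, 434 cells would reach 2 or more at these depths, and 436 did. The same rate gives 1896.3 cells at 0, where 1902 were observed, 992.7 at 1, where 985 were observed, and 85.8 at 3, where 82 were observed. At 4 UMIs 24 cells were counted against 21.4, and at 5 or more 8 against 6.8. At these counts the distribution of eGFP over cells therefore lay close to that of a single rate.

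The share of positive cells followed the depth of the cell. It was 4.82% (3.36 to 6.66) in cells with 10000 to 15000 UMIs and 44.2% (37.4 to 51.1) in cells with 50000 UMIs or more, where a single rate gives 3.63% and 43.1%. Over the 7 depth ranges the eGFP level itself stayed between 22.4 and 26.3 CPM. Positive cells accordingly had a median of 32518.5 UMIs and negative cells 19828.5, and a doublet score above the threshold was given to 11.0% (8.23 to 14.3) of the former and 3.79% (2.97 to 4.74) of the latter.

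**Figure D1:**
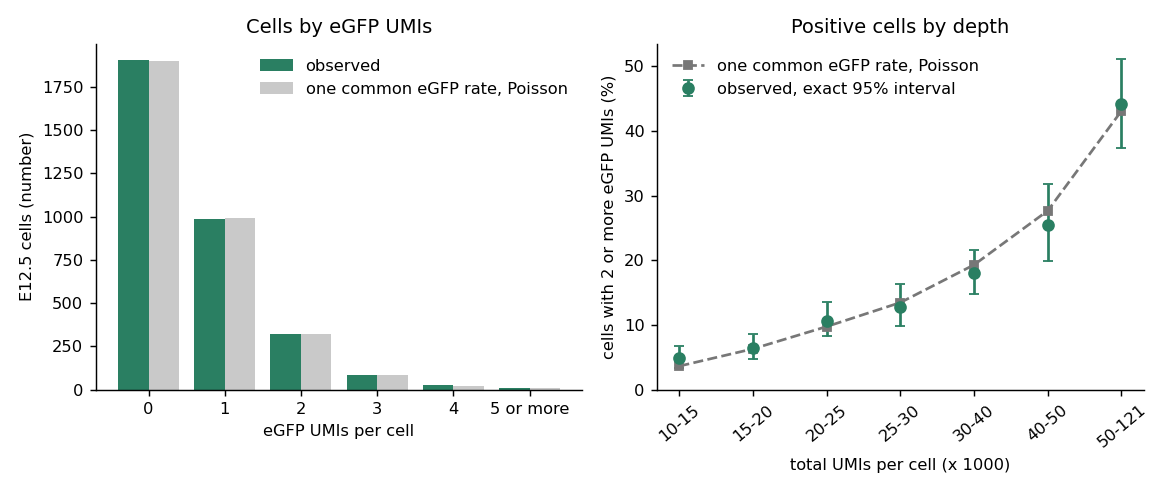
Left, number of E12.5 cells (y axis) with each number of eGFP UMIs (x axis), observed and as given by a single eGFP rate with Poisson counts. Right, percentage of cells with 2 or more eGFP UMIs (y axis) in 7 ranges of total UMIs per cell (x axis, in units of 1000), with exact 95% intervals; the observed share climbs from 4.82% to 44.2% along the line of the single rate.

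To take depth out of the comparison, positive and negative cells were paired at random within narrow ranges of total UMIs. This kept 392 cells on each side, with medians of 30450.5 and 29688.5 UMIs and with 13006901 and 12987692 UMIs in all. The 44 positive cells without a partner were the deepest, with a median of 66162 UMIs. After matching, the sides were alike in detected genes (medians 5874.5 and 5927), in mitochondrial UMIs (4.32% and 4.43%), and in doublet scores above the threshold (9.69%, 6.95 to 13.1, and 8.16%, 5.65 to 11.3). Each side held 73 cells with Xist but no Y-linked UMIs, and 212 positive and 208 negative cells had the reverse.

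Bmi1 itself, the gene the reporter stands for, was not higher in the positive cells. The matched positive cells held 201 Bmi1 UMIs (15.5 CPM, 13.4 to 17.7) and the negative cells 229 (17.6 CPM, 15.4 to 20.1). The log2 ratio of positive over negative, taken throughout as log2 of (CPM + 1)/(CPM + 1), was -0.18, and the interval of the fold, positive over negative, ran from 0.722 to 1.06. In the 21 alternative comparisons this log2 ratio lay between -0.50 and 0.16. At least 1 Bmi1 UMI was seen in 36.7% (32.0 to 41.7) of positive and 40.1% (35.2 to 45.1) of negative cells at near-equal depth, and no class of cells that should lack Bmi1 was available to set a background. Without matching these shares were 39.7% and 27.9%, with the direction turned, at median depths of 32518.5 and 19828.5 UMIs. Commd3, the adjacent upstream gene, had 2084 and 1939 UMIs (160 and 149 CPM), a log2 ratio of 0.10.

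The level of Bmi1 was nearly the same from 0 to 4 eGFP UMIs. It was 15.6 CPM (14.5 to 16.9) in cells with no eGFP UMI, 15.9 (14.4 to 17.4) in cells with 1, just below the limit for a positive cell, and 15.5 (13.3 to 18.1) in cells with 2, just above it. Cells with 3 or 4 eGFP UMIs had 15.5 CPM (12.2 to 19.4). The 8 cells with 5 or more eGFP UMIs held 4 Bmi1 UMIs (8.25 CPM, 2.25 to 21.1). Taken the other way, Bmi1 counts per cell were wider than a single rate gives at the top of the range, with 15 cells at 4 UMIs against 6.6 and 4 cells at 5 or more against 1.4.

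The 2 profiles were nearly the same across the transcriptome. Of 6310 genes with at least 500 UMIs over both sides, eGFP left out, 6271 (99.4%) had a log2 ratio within 0.32 of 0, and the median absolute log2 ratio was 0.061. The central 95% of log2 ratios lay between -0.23 and 0.17 around a median of -0.01. A difference of 1.5-fold or more was found higher in the positive cells for 1 gene (0.0158% of those compared) and lower for 5 (0.0792%). The gene on the higher side was Cpa1, and those on the lower side were Gcg, Slc38a5, Pyy, Postn and Anxa5. With a minimum of 50 UMIs, used below for gene lists, 17 of 11378 genes were 1.5-fold higher (0.149%) and 69 were lower (0.606%), with a median log2 ratio of -0.02.

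**Figure D2:**
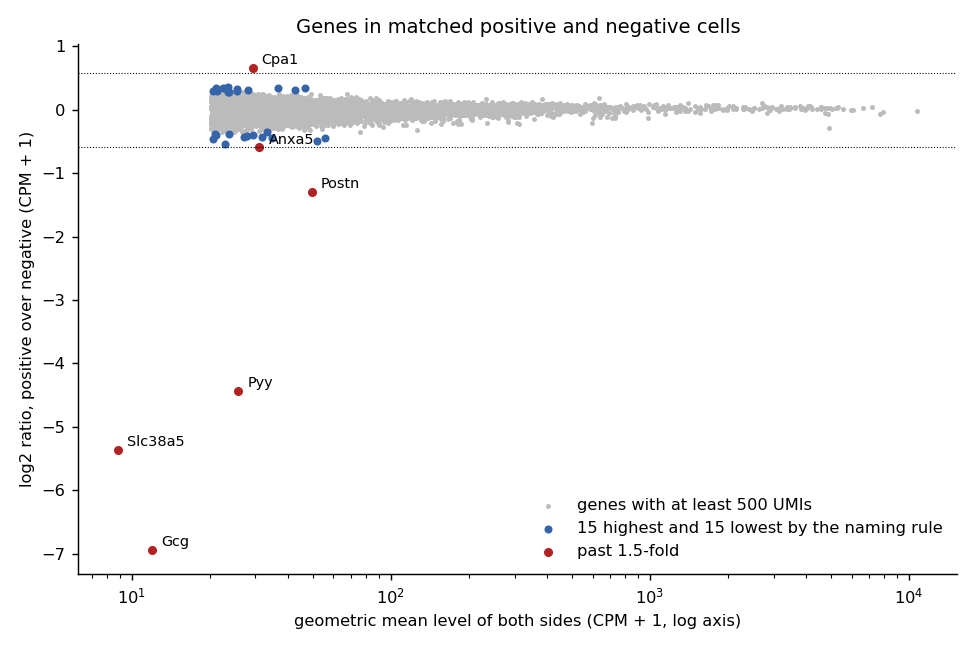
Log2 ratio of positive over negative cells (y axis) against the geometric mean level of both sides (x axis, CPM + 1, log scale) for the genes with at least 500 UMIs, eGFP left out. Red points are the 6 genes at or past 1.5-fold (dotted lines), blue points the 15 highest and 15 lowest named genes; the grey band of all other genes lies close to 0.

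Postn had the strongest difference spread over many cells. This gene, on chromosome 3 from 54361109 to 54391037 on the + strand, encodes periostin, a secreted matrix protein best known from mesenchyme. The positive cells held 399 Postn UMIs (30.7 CPM, 27.7 to 33.8) and the negative cells 996 (76.7 CPM, 72.0 to 81.6), a level 2.50 times lower (2.22 to 2.81) in positive cells. A Postn UMI was present in 48 of 392 positive cells (12.2%) and in 81 of 392 negative cells (20.7%). With each cell thinned to 10000 UMIs the shares were 7.40% (5.01 to 10.5) and 16.8% (13.3 to 20.9). The most Postn-rich cell had 32 UMIs on the positive and 52 on the negative side, so that no single cell carried the difference. Postn was past 1.5-fold lower in all 21 alternative comparisons in which it was computed, with log2 ratios from -3.51 to -0.64. The alternatives drew on the library in which this gene and those below were picked, so a kept sign is no independent support.

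Anxa5, on chromosome 3 from 36448923 to 36475894 on the - strand, encodes a protein that binds phosphatidylserine in membranes. Its UMIs numbered 316 in positive cells (24.3 CPM, 21.7 to 27.1) and 483 in negative cells (37.2 CPM, 33.9 to 40.7), or 1.53 times fewer (1.33 to 1.77). It was detected in 149 and 180 cells. The log2 ratio of -0.59 sat at the edge of the 1.5-fold limit and lay between -0.79 and -0.24 in the 21 alternatives.

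Hox genes of the posterior body were lower in the positive cells. Of 35 Hox genes in the files, 16 had at least 50 UMIs over both sides. Their median log2 ratio was -0.34 against -0.02 over all genes at that minimum, 14 of the 16 were below 0, and 4 of 16 were past 1.5-fold lower, where 0.606% of all genes were. The 4 were Hoxa9, Hoxa10, Hoxb9 and Hoxb13, which are also all the measured members of paralog groups 9 to 13. The list was written with earlier results of these data known, and its counts are a description. Hoxa9, Hoxa10 and Hoxb13 also reached the minimum mainly through the negative side.

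Hoxb13, the most posterior gene of the HoxB cluster (chromosome 11, 96194316 to 96197447, + strand), had 30 UMIs in 7 positive cells and 117 UMIs in 20 negative cells, 3.91 times fewer (2.60 to 6.04) in the positive cells. Hoxa10 (chromosome 6, 52231197 to 52240854, - strand) had 17 UMIs in 11 positive cells and 63 in 32 negative cells, 3.71 times fewer (2.15 to 6.77). Hoxa9 gave 14 and 46 UMIs, 3.29 times fewer (1.78 to 6.48). Hoxb9 was the most widely detected of the 4, with 62 UMIs in 32 positive cells and 127 in 55 negative cells, 2.05 times fewer (1.503 to 2.83). All 4 kept a negative log2 ratio in each of 21 alternatives, though the number of cells behind Hoxb13 was small.

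Summed over the 13 genes of paralog groups 9 to 13, the positive cells had 151 UMIs (11.6 CPM) and the negative cells 422 (32.5 CPM), a log2 ratio of -1.41 with an interval of the unshrunk ratio from -1.76 to -1.21. The 22 genes of groups 1 to 8 gave 992 and 1195 UMIs (76.3 and 92.0 CPM), a log2 ratio of -0.27 (-0.39 to -0.15). Among these anterior and middle paralogs Hoxb7 had 96 and 144 UMIs, a log2 ratio of -0.53, and Hoxb3 and Hoxb4 had log2 ratios of -0.46 and -0.37. Hoxb6 was at 0.04. Hoxa13, with 9 and 19 UMIs, and Hoxd13, with 6 and 14, were under the minimum.

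Factors that set the regions of the gut had a median ratio near 0. Cdx2, which specifies the intestine, had a log2 ratio of 0.00 (3956 and 3949 UMIs), Gata4 had -0.04, Gata6 0.01, Onecut2 0.05, Osr2 0.16 and Pdx1 0.11. Over the 15 measured genes of that list the median was 0.01. None passed 1.5-fold, where 0.149% of all genes were higher and 0.606% lower.

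**Figure D3:**
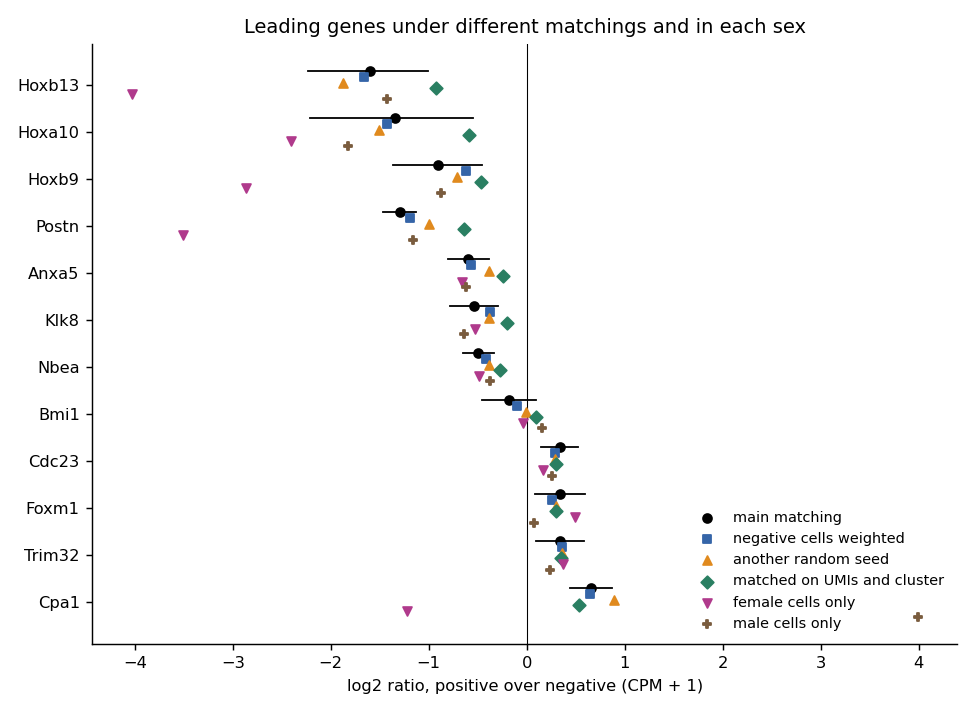
Log2 ratio of positive over negative cells (x axis) for 12 genes (y axis) in the main matching, with the 95% counting interval as a line, and under 5 other comparisons of the same library. Hox genes, Postn, Anxa5, Klk8 and Nbea lie left of 0 in every one of them, Bmi1 lies around 0, and Cpa1 lies on both sides, at -1.22 in female and 4.00 in male cells.

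The remaining named genes were those with the lowest and highest ratios among genes found in at least 10% of the cells of the higher side. Besides Postn and Anxa5, the 13 other lowest ranged from -0.54 to -0.36 on the log2 scale. Klk8, a secreted serine protease, had 235 and 346 UMIs (1.47 times fewer, 1.246 to 1.75). Nbea, a scaffold protein of membrane trafficking, had 554 and 784 (1.42 times fewer, 1.27 to 1.58), and Supt20, a subunit of the SAGA coactivator complex, had 605 and 829 (1.37 times fewer, 1.23 to 1.53). These 3 were low in many cells, Nbea being detected in 232 positive and 270 negative cells and Supt20 in 272 and 306.

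Signalling and calcium-binding genes among the lowest were Edn1, which encodes the peptide endothelin, at -0.45, Pde3a, a cyclic nucleotide phosphodiesterase, at -0.38, and S100a6, a calcium-binding protein, at -0.43. Cald1, the actin-binding protein caldesmon, was at -0.40, and Smarca1, an ATPase of ISWI chromatin remodellers, at -0.36. Sct, the gene of the hormone secretin, was at -0.44, with 67 of its 466 negative-side UMIs in 1 cell. Golim4, a Golgi membrane protein, stood at -0.41 and Vps13a, a lipid transfer protein, at -0.38. Fam169a and Wbp1l completed the set at -0.46 and -0.40. Of the 15 lowest genes, 14 kept their sign in all 21 alternatives, S100a6 being the exception with 20. The median log2 ratio of the 15 lowest was -0.44, and -0.23 with matching on cluster. For the 15 highest these medians were 0.31 and 0.22. Here and for the highest genes, kept signs are a description, since the genes were picked as extremes in the same library.

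The highest named genes had smaller ratios, from 0.28 to 0.36, and 7 of the 15 kept their sign throughout. These 7 were Trim32, an E3 ubiquitin ligase (316 and 247 UMIs, log2 ratio 0.34), Atpaf2, an assembly factor of the mitochondrial ATP synthase (324 and 252, 0.34), Cdc23, a subunit of the anaphase-promoting complex (521 and 409, 0.34), Foxm1, a transcription factor of mitotic genes (295 and 230, 0.34), Zc3hc1 (354 and 286, 0.29), Sf3a2, a splicing factor (291 and 233, 0.30), and Srrd (324 and 263, 0.29). Cdc23 was detected in 277 positive and 234 negative cells. Cited1, a transcriptional coactivator, was highest at 0.36, but 49 of its 333 UMIs lay in 1 positive cell, and it kept its sign in 14 of 21 alternatives. Dlk1, an imprinted ligand related to Notch ligands, was at 0.34, and at -0.01 with another random pairing. The other 6, Nfkbib, Hmces, Gnl1, Myrf, Nqo2 and Stxbp4, kept their sign in 19 or 20.

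None of the measured Polycomb genes differed by 1.5-fold, at a minimum where 0.149% of all genes were higher and 0.606% lower. A list of this size would hold few or none at those shares. All 22 genes listed for Polycomb repressive complex 1 were measured, with a median log2 ratio of -0.09, a range from -0.26 (Kdm2b and Cbx7) to 0.25 (Phc3), and 16 of 22 below 0. Rnf2, the main ubiquitin ligase of the complex, had 568 and 581 UMIs (-0.03), and Pcgf2, the paralog closest to Bmi1, 268 and 299 (-0.15). For Polycomb repressive complex 2, which methylates histone H3, 10 of 12 genes were measured with a median of -0.06, and Ezh2, its methyltransferase, had 3160 and 3221 UMIs (-0.03). The known Polycomb target Cdkn2a was at 8 and 10 UMIs, too few to compare, and over the 5 measured Cdk inhibitors the median was -0.01, with Cdkn1a at 1948 UMIs on both sides and Cdkn1c at 4961 and 4992.

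Cell cycle genes were likewise close to equal. The 20 genes of G2 and mitosis had a median of -0.02, from -0.18 (Mki67, 2192 and 2488 UMIs) to 0.10 (Cdc20, 1934 and 1800), and the 20 S phase genes a median of 0.02. In matched cells thinned to 10000 UMIs, 95.4% (92.8 to 97.3) of positive and 91.3% (88.1 to 93.9) of negative cells carried at least 3 UMIs of the G2 and mitosis list, and without thinning 97.7% and 95.4%. With another random pairing the thinned shares were 95.7% and 94.6%. At a minimum of 10 UMIs they were 87.0% (83.3 to 90.2) and 80.6% (76.3 to 84.4).

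Stem cell and lineage genes of the later crypt gave medians near 0. For crypt stem genes and Wnt targets it was 0.01 over 15 measured genes, with Lgr5, the marker of crypt base stem cells, at 112 and 116 UMIs and Axin2, a feedback target of Wnt signalling, at 118 and 114. For reserve stem markers it was 0.01 over 8 genes. Hopx, a marker of slowly cycling crypt cells, had 975 and 901 UMIs (0.11), and Lrig1, an inhibitor of epidermal growth factor receptors, had 71 UMIs in 63 positive cells and 46 in 41 negative cells (0.51, below 1.5-fold on this scale). Medians were -0.03 for Hedgehog, -0.06 for Notch, -0.01 for YAP and TEAD, -0.03 for fetal growth, -0.03 for enterocyte genes, -0.06 for immediate early genes, -0.08 for p53 targets and 0.02 for heat shock genes. In these 8 lists the single gene past 1.5-fold was Anxa1, at 26 and 47 UMIs, where 0.606% of all genes were lower by that much.

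The cells on both sides had the markers of gut epithelium. All 16 listed genes were measured, with a median of 0.00, and Epcam, an adhesion molecule of epithelia, had 17415 and 16978 UMIs. Among markers of other cells, those of endothelium, erythroid cells, leukocytes and smooth muscle were scarce. Endothelial and erythroid genes gave no measured member, with 25 and 28 and with 9 and 10 UMIs in all on the positive and negative side. Ptprc, the leukocyte surface marker, was at 0 on both sides, and Cd68, with 111 and 94 UMIs, was the measured leukocyte gene. Of 16 mesenchymal genes 3 were measured: Postn, Vim (5664 and 5910 UMIs, -0.06) and Col3a1 (66 and 90, -0.38), while Pdgfra had 4 and 6 UMIs and Col1a1 1 and 12. Lists of smooth muscle, mesothelium and enteric neural crest gave 1, 3 and 3 measured genes with medians of 0.16, -0.12 and -0.09, and the hepatic list gave 8 with -0.01. Summed, the hepatic list stood at 725 CPM in positive and 749 in negative cells, and the mesenchymal list at 474 and 545. The mesothelial list, which shares Krt19 with that of gut epithelium, stood at 241 and 263.

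Hormone genes made up the remaining differences in the lower direction, and few cells carried them. Gcg, which encodes proglucagon, had 1 UMI in the positive and 1705 in the negative cells, of which 1696 lay in 1 cell. That cell also held 883 of the 1539 negative-side UMIs of Pyy, the peptide YY gene, and 686 of the 725 of Slc38a5, an amino acid transporter. Another negative cell held 646 Pyy and 130 Chgb UMIs, Chgb being a protein of secretory granules. Both negative cells lay in cluster 10 of the clusters described below (103 cells, led by Cpa1, Spp1 and Clps). That cluster held 3010 Gcg UMIs, and no other cluster held more than 6. The positive cell richest in Pyy, with 38 UMIs, lay in cluster 11. Without the richest cell of each gene the sides had 0 and 9 Gcg UMIs and 4 and 39 Slc38a5 UMIs. Of the 8 measured endocrine products all were below 0 and 6 past 1.5-fold lower, where 0.606% of all genes were, with a median of -2.21. Members such as Chgb (4 and 160 UMIs), Pcsk2 (2 and 62) and Pcsk1n (7 and 73) reached the minimum only through the negative side. A low ratio was thereby built into their selection, and the counts of this list are no support for a difference. The list median was 0.050 with matching on cluster and 0.051 in male cells. The 7 measured endocrine lineage factors had a median of -0.14, with the highest at 0.06. Among them Isl1 (47 and 113 UMIs) and Etv1 (28 and 68) were past 1.5-fold lower, where 0.606% of all genes were. Both of these reached the minimum mainly through the negative side. The log2 ratio of Isl1 was -1.07, and -0.03 with matching on cluster. Over all filtered cells, 2 of 436 positive and 13 of 1902 negative cells had at least 10 UMIs of Gcg, Pyy and Chgb together. Of these 15 cells 13.3% were positive, where a single eGFP rate gives 11.1% at their depth.

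Cpa1, the gene of a pancreatic carboxypeptidase and the only one past 1.5-fold on the higher side among genes with at least 500 UMIs, was equally uneven. It had 465 UMIs in 17 positive cells and 290 in 15 negative cells, with 184 and 83 UMIs in the richest cell of each side. Over all filtered cells, cluster 10 held 1845 Cpa1 UMIs, in 87.4% of its cells at a median depth of 23030 UMIs. No other cluster held more than 19. Of the cells of cluster 10, 14.6% were positive, where a single eGFP rate gives 15.3%. Without the richest cell of each gene the log2 ratio of Cpa1 was 0.42, in female cells it was -1.22 and in male cells 4.00. At the minimum of 50 UMIs, the pancreatic progenitor list had a median of 0.11 over 9 measured genes, and 2 of the 9 were past 1.5-fold higher, where 0.149% of all genes were. Nkx6-1 was at 50 UMIs on both sides.

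Cells with 1 eGFP UMI, which were used for neither side, gave an intermediate level for several of the lower genes. Postn stood at 78.5 CPM (75.9 to 81.2) in cells with no eGFP UMI, 48.1 (45.5 to 50.8) with 1, 28.8 (25.7 to 32.2) with 2 and 33.3 (28.4 to 38.9) with 3 or 4. Weighted to the depth of the positive cells, these were 68.4, 53.4, 30.9 and 31.0 CPM. Anxa5 ran through 41.9, 31.1, 24.2 and 25.03 CPM. Paralog groups 9 to 13 of the Hox genes stood at 38.1 (36.2 to 39.96), 23.6 (21.8 to 25.5), 11.4 (9.46 to 13.6) and 11.8 (8.93 to 15.3) CPM. For these the difference between cells with 0 and with 1 eGFP UMI was not present after weighting for depth, at 30.1 and 31.2 CPM, whereas 2 and 3 to 4 eGFP UMIs remained at 12.2 and 10.0 CPM.

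**Figure D4:**
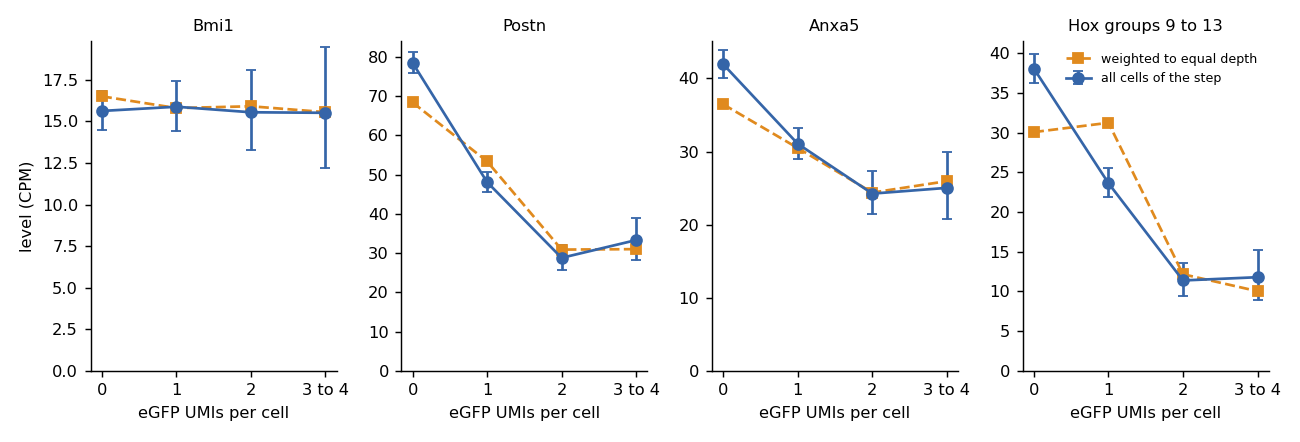
Level in CPM (y axes) of Bmi1, Postn, Anxa5 and the summed Hox paralog groups 9 to 13 in cells with 0, 1, 2 and 3 to 4 eGFP UMIs (x axes), as observed with exact Poisson 95% intervals and after weighting each step to the depth of the positive cells. Bmi1 stays between 15.5 and 15.9 CPM in the observed values, and the other 3 panels are lower from 2 eGFP UMIs onward; the 8 cells with 5 or more are not drawn.

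The same relation was read in the other direction, from cells grouped by these genes, which were chosen after their values were seen. In the 241 cells with at least 3 UMIs of Hox paralog groups 9 to 13, eGFP stood at 14.6 CPM (11.96 to 17.6), and 8.30% of them were positive where a single eGFP rate gives 16.9% at their depth. In the 2829 cells with none of these UMIs it was 24.3 CPM (23.2 to 25.5), with 13.5% positive against 12.5%. Bmi1 was 12.96 CPM (10.5 to 15.8) in the former and 15.7 (14.8 to 16.6) in the latter, a smaller difference with intervals that overlap. In the 365 cells with at least 3 Postn UMIs eGFP was 15.9 CPM (13.6 to 18.5), against 24.5 (23.3 to 25.7) in the 2750 cells without Postn.

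Clusters of the E12.5 cells, made without eGFP and Bmi1, placed these genes mainly in 2 of 14 groups. Cluster 9 (106 cells) was led by Hoxb13, Sfn and Hoxa10, and 65.1% of its cells had a Hoxb13 UMI at a median depth of 21962 UMIs. In the other clusters this share ran from 0% to 1.94%, except for 1 of the 15 cells of cluster 12. Cluster 5 (315 cells) was led by Postn, Anxa5 and Hoxb9, with a Postn UMI in 98.1% of its cells at a median depth of 21498 UMIs. This share was 52.8% in cluster 9, 6 of 11 cells in cluster 13, and between 0% and 10.1% in the others, with 4.27% in cluster 0 at 21737. Anxa5 was at 180 CPM both in cluster 5 and in the 15 cells of cluster 12, where eGFP was 38.4 CPM (20.4 to 65.6). Clusters 9 and 5 had the lowest eGFP, at 13.9 CPM (9.77 to 19.1) and 16.6 (13.9 to 19.6). Of their cells 5.66% and 7.62% were positive, where a single rate gives 12.5% for either. Cluster 11 (87 cells, led by Tcf24 and Nepn) had 17.8 CPM (12.7 to 24.2), and Bmi1 was 14.3 (10.1 to 19.6), 13.3 (10.9 to 16.1) and 11.5 CPM (7.54 to 16.9) in clusters 9, 5 and 11.

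The highest eGFP level in a cluster of more than 15 cells was 31.9 CPM (26.8 to 37.7) in cluster 7, whose 244 cells were led by Hist1h2bc and AY036118 and had the lowest median depth, 14332.5 UMIs. Its Bmi1 level was 14.1 CPM (10.8 to 18.1). The part that depth has in the eGFP level of this cluster was not tested. Clusters 0 to 4, 6, 8 and 10 had eGFP between 22.3 and 25.9 CPM, near the 23.3 CPM of all cells. When pairs were also matched on cluster, the log2 ratios shrank to -0.64 for Postn, -0.93 for Hoxb13, -0.58 for Hoxa10 and -0.24 for Anxa5, and that of Bmi1 was 0.10.

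**Figure D5:**
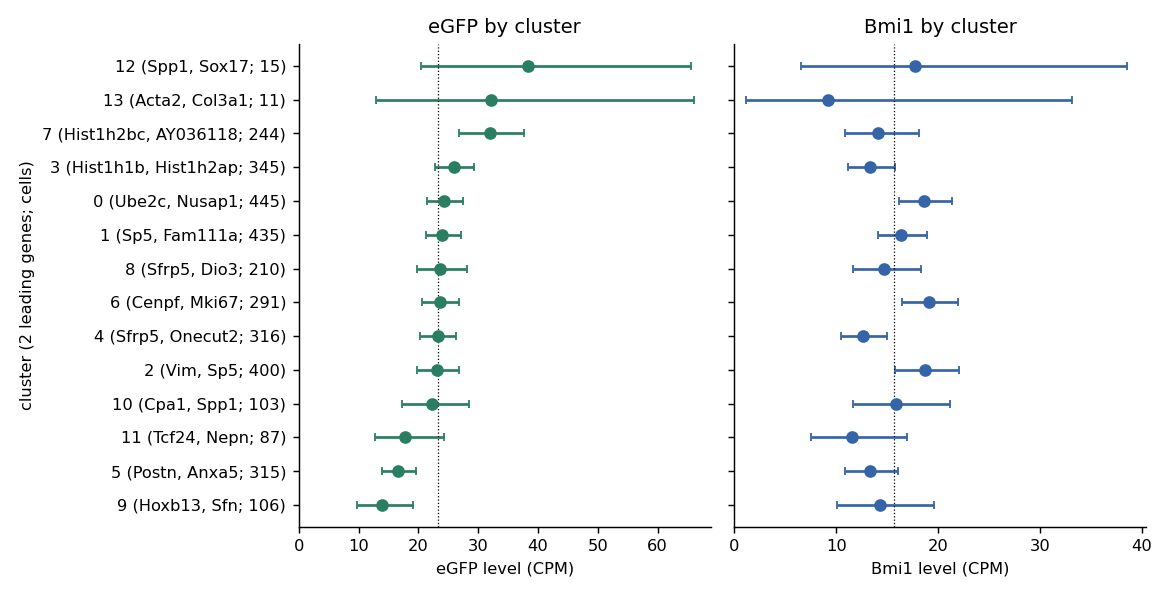
eGFP level (left) and Bmi1 level (right) in CPM (x axes) in each of 14 clusters (y axis, with 2 leading genes and the number of cells), with exact Poisson 95% intervals; dotted lines give the level over all filtered E12.5 cells, 23.3 and 15.6 CPM. Clusters 9 and 5 have the lowest eGFP level, 13.9 and 16.6 CPM, while their Bmi1 intervals include the level of all cells. The Bmi1 intervals of clusters 0, 2 and 6 lie above that level and that of cluster 4 below it.

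Male and female embryos contributed cells to the library, which allowed a split that the eGFP rule did not use. In 69 matched pairs of female cells Postn had 11 UMIs on the positive and 146 on the negative side, and in 209 pairs of male cells 234 and 530. Paralog groups 9 to 13 of the Hox genes had 3 and 98 UMIs in female and 104 and 280 in male cells. Anxa5 gave 58 and 93 UMIs in female and 166 and 259 in male cells. Direction was the same in both sexes for these genes, which were picked in the same library, so the split is no independent support. The female values rest on 3 positive and 11 negative cells with Postn and on 3 and 8 with a posterior Hox UMI. Bmi1 had 34 and 35 UMIs in female and 108 and 96 in male cells, and the eGFP level was 23.8 CPM (21.5 to 26.3) in female and 22.9 (21.5 to 24.3) in male cells.

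The same rule found no positive cell at E17.5, so that the gene comparison has no counterpart there. Among 2550 filtered E17.5 cells 54 had 1 eGFP UMI and 0 had 2 or more, which allows a share of up to 0.118% (3 counts of the total, the limit used here for a count of 0), and the eGFP level was 0.840 CPM (0.631 to 1.10) against 23.3 at E12.5. In the adult library 30 of 790 cells had 1 eGFP UMI and 0 had 2 or more, which by the same limit allows up to 0.380%. Bmi1 stood at 8.66 CPM (7.96 to 9.41) at E17.5 and 9.05 (7.81 to 10.4) in the adult, against 15.6 CPM (14.8 to 16.5) at E12.5. In the 54 E17.5 cells with an eGFP UMI Bmi1 was 11.3 CPM (6.69 to 17.9) and in the others 8.59 (7.88 to 9.35), at unmatched median depths of 29166 and 23229 UMIs. Stage and library cannot be told apart here. Between 6 and 12 cell barcodes of the E12.5 library occurred in each of the other 3, at most 0.230% of its barcodes, and barcodes with fewer than 1500 UMIs in the E12.5 library had eGFP at 8.36 CPM (3.61 to 16.5, from 8 UMIs).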

How the data were processed

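The authors deposited matrices of raw UMI counts per gene and cell barcode for 4 libraries, made with 10x version 3 chemistry per the labels' protocols and processed with Cell Ranger 3.1.0 on mm10 per the submitters' processing notes. The rule by which barcodes were called is not given in the sources used here. Of 31053 Ensembl IDs, 31011 matched GENCODE M21 (GRCm38). How reads were assigned to eGFP is not given in the sources used here.

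Positive and negative cells, defined by eGFP UMIs, were paired 1 to 1 at random within bins of 0.05 in log10 total UMIs, and counts were summed over 392 cells a side. Levels are CPM, and ratios carry a pseudocount of 1 CPM, which shrinks the ratios of low genes. Fold intervals come from the exact binomial split of the UMIs without a pseudocount. Levels carry exact Poisson intervals and shares exact Clopper-Pearson intervals. A gene was called at 1.5-fold or more among genes with at least 500 UMIs over both sides, and lists were read at a minimum of 50. The depth behind a matched cell ranged from 10029 to 106450 UMIs. The embryos pooled in the library are not told apart, so the spread between animals is unknown.

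Named genes were the 15 highest and 15 lowest by log2 ratio with a UMI in at least 10% of the cells of the higher side, together with members of the 32 lists. Left out were eGFP, genes of the mitochondrion, of ribosomal proteins, of globins and immunoglobulins, Xist, Y-linked genes and predicted genes. The members, the lists and the alternatives were chosen with earlier results of these data known, and the choice of single genes shown by cluster, by sex and by eGFP count was made after their values were seen. Clusters came from 2000 variable genes, 30 principal components, 20 neighbours and the Leiden method at resolution 1, with eGFP and Bmi1 left out (scanpy 1.11.5, leidenalg 0.10.2). Scrublet scores marked 173 of the 3323 filtered cells as doublets, at 0.8% per 1000 barcodes, and these cells were kept except in 1 alternative. Cells were female with at least 2 Xist UMIs and no Y-linked UMI, and male with at least 2 Y-linked UMIs and no Xist UMI. For TMM factors edgeR 4.0.16 in R 4.3.3 was used. The ratios and their intervals were tested on simulated counts of 2 summed sides, and the matching of cells was not part of that test. Some list members are not reported here.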

Additional observations from a re-analysis of the deposited data

Results flagged for a closer look

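Reporter counts also appeared in a library that the comparison did not use. In the irradiated adult library 62 of 1394 filtered cells had 2 or more eGFP UMIs (4.45%, 3.43 to 5.67), where the adult library had 0 of 790. The eGFP level was 12.1 CPM (10.9 to 13.3) and 1.44 CPM (0.970 to 2.05), respectively. Bmi1 stood at 13.3 CPM (8.80 to 19.4) in the 62 cells, with a median of 19580 UMIs, and at 13.8 CPM (12.3 to 15.4) in the 1060 cells of that library without an eGFP UMI, with a median of 15251 UMIs. In irradiated adult barcodes with fewer than 1500 UMIs eGFP was 11.3 CPM (6.04 to 19.4, from 13 UMIs), near the level of the filtered cells. With 1 library per group, irradiation and library cannot be told apart.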

How the results depend on the processing

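No paired analysis was possible because all positive and negative cells come from 1 library and the labels name no animals; for the same reason no replicate was left out. The gene comparison at E17.5 was not run, since no cell there was positive. Depth limits low genes, such as Hoxb13 at 2.31 and 9.01 CPM.

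Of genes 1.5-fold higher (1) and lower (5), 0 were higher without matching, with matching on cluster, in thinned cells, with positive cells from 1 or from 3 eGFP UMIs, at 10% mitochondrial UMIs, in gut epithelial clusters, in female cells, with CPM averaged over cells, at a pseudocount of 10 CPM, at 2-fold, and without the richest cell of each gene, this last added after seeing the data. The lower count was 25 without matching, 2 with matching on cluster, 1 in thinned cells, 2 from 3 eGFP UMIs, 8 with doublets removed, 1 in gut epithelial clusters and 1 in male cells. The higher and lower counts were 7 and 27 at 100 UMIs per gene, 49 and 226 without a minimum, and 8 and 31 at a log2 limit of 0.32. The cause was not tested beyond the lower minimum and fold, which admit more genes.

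The log2 ratio of Bmi1 was -0.50 in thinned cells, 0.14 from 3 eGFP UMIs and 0.16 in male cells. Shares with at least 3 G2 and mitosis UMIs became 97.7% (positive) and 95.4% (negative) without thinning and 87.0% and 80.6% at 10 UMIs. The negative share alone became 86.5% without matching, 87.8% at 5 UMIs, 97.1% from 3 eGFP UMIs and 94.6% with another seed.

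Of the recomputed single genes and list medians past 1.5-fold in the reported comparison, those that turned sign were endocrine and pancreatic. Values nearer to 0, Bmi1 and several list medians among them, also lay on both sides of 0. The endocrine product median was 0.050 with matching on cluster and 0.051 in male cells. Pyy was 1.32 with matching on cluster, 1.98 in gut epithelial clusters and 1.84 in male cells. Slc38a5 was 0.18 in gut epithelial clusters and 0.53 in male cells, where Isl1 was 0.049. Cpa1 was -1.44 from 3 eGFP UMIs, -1.08 in gut epithelial clusters and -1.22 in female cells. Gut epithelial clusters leave out cluster 10 (103 cells, pancreatic genes) and cluster 13 (11 cells, mesenchymal and smooth muscle genes). Of 609 list medians recomputed, 407 stayed within the counting interval, and of 819 single-gene ratios 674 did.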
